A study of Mus musculus with 6 samples.

Results

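Heat shock chaperones and their co-chaperones were followed in the livers of untreated mice with and without TLR3, an endosomal sensor of double-stranded RNA. The genes were Hspa1a, Hspa1b, Hspa8, Hsp90aa1, Hsph1, Hspb1, Hspd1, Hspe1, Dnajb1 and Bag3, and each was read from a probe set annotated to its symbol alone, the one with the highest mean over the 6 arrays where there were several. Of these 10 genes, 9 had such a probe set, out of 19938 genes on the array that did, and Hspb1, Hspa8, Hsp90aa1, Hspd1 and Hspe1 had several. Hspa1b had none, because its only probe set is also annotated to Hspa1a. The lowest value of the table is a floor of exactly 5 on the log2 scale, and 8 of the 9 genes were above it on all 6 arrays, and Hspa1a was at the floor on 1 array. Total liver RNA came from 3 TLR3-/- and 3 TLR3wt mice, 1 array per mouse, all aged 3 months, untreated and bred in-house under specific-pathogen-free conditions. The series design gives the strain as C57Bl/6 for both genotypes. How the TLR3 allele was made, the sex of the mice, whether they were littermates, and the time of day at which livers were taken are not given in the sources used here.

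Heat shock proteins bind unfolded proteins, keep them from aggregating and help them fold. HSP70 proteins work in a cycle of ATP hydrolysis that J-proteins such as DNAJB1 start and that nucleotide exchange factors such as HSPH1 and BAG3 end, HSP90 matures client proteins such as steroid receptors and kinases, and the chaperonin of HSPD1 and HSPE1 folds proteins inside mitochondria. Heat and other proteotoxic stress induce many of these genes through the transcription factor HSF1, which binds repeats of the letters GAA in alternating orientation, and in liver several of them follow a daily rhythm.

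Each array had 15081 to 15226 of 35557 probe sets above the floor, and array medians over the 16639 probe sets above it on at least 1 array were 6.54 to 6.59 (log2 RMA signal). The Tlr3 probe set was at the floor on all 6 arrays, so the array gave no check of the genotype labels. Of 10 hepatocyte genes 9 had a probe set, Alb, Apoa1 and Ttr among them, and all 9 were above the floor on all arrays. The number of arrays limits the precision of every value below.

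Of the 9 measured heat shock genes, 8 had a lower mean in TLR3-/- livers, where 41.2% of all tested probe sets did, with a median log2 difference of -0.40 (TLR3-/- minus TLR3wt) against 0.03 over all tested probe sets. None of the 9 passed limma's adjusted p of 0.05, and 0.186% of all tested probe sets passed (0.0481% lower and 0.138% higher). At an unadjusted limma p under 0.05 there were 3, Dnajb1, Hspa1a and Bag3, all lower (14.5% of tested probe sets reached that level, 5.25% lower and 9.21% higher). An ordinary pooled-variance test, run as an alternative, also called 0 of the 9. Both groups of 3 livers stayed apart for Dnajb1 and Hspa1a, as they did, in the lower direction, for 7.04% of tested probe sets (13% in the higher direction, 20.1% in either).

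**Figure D1:**
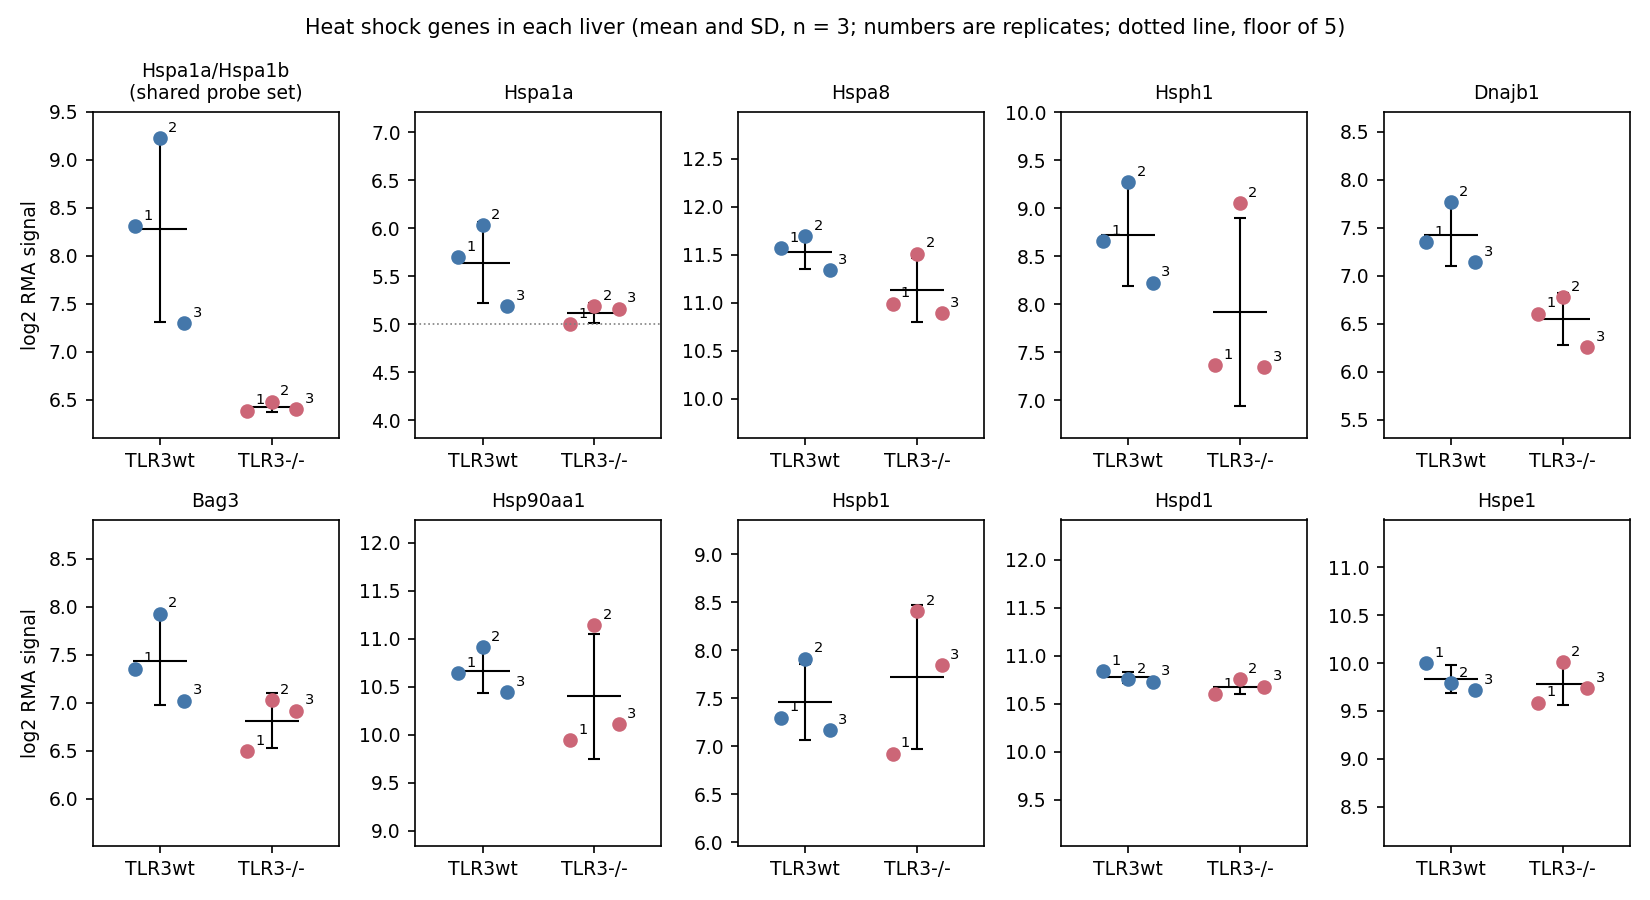
Log2 RMA signal of each liver (points, numbered by replicate) for the 9 measured heat shock genes and the probe set shared by Hspa1a and Hspa1b, with the mean and SD of 3 mice per group and the floor of 5 as a dotted line; all panels have the same height in log2 units. The shared probe set and Dnajb1 are lower in all 3 TLR3-/- livers than in any TLR3wt liver, and TLR3-/- replicate 2 is the highest TLR3-/- liver in every panel, by the widest margins in Hsph1 and Hsp90aa1.

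The stress-inducible HSP70 genes Hspa1a and Hspa1b encode near-identical cytosolic HSP70 proteins. Hspa1a (probe set 10450369) was 5.70, 6.03 and 5.19 in TLR3wt replicates 1 to 3 and, in TLR3-/- livers, at the floor in replicate 1, 5.19 in replicate 2 and 5.16 in replicate 3 (log2 signal). The groups did not overlap, but by only 0.00102 between TLR3wt replicate 3 and TLR3-/- replicate 2, and the TLR3-/- values were at or close to the floor. The group means were 5.64 ± 0.42 and 5.12 ± 0.10 (SD, n = 3 each), a log2 difference of -0.52 (95% interval -1.03 to -0.02, limma adjusted p = 0.330), which the floor understates where a value lies at it. Without TLR3wt replicate 2 the difference was -0.33, and without TLR3wt replicate 3 it was -0.75.

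The probe set annotated to both genes (10450367) lies outside the rule for members and was looked at after its values were seen, and it cannot be assigned to either gene. It read 8.31, 9.22 and 7.30 in TLR3wt replicates 1 to 3 and 6.38, 6.48 and 6.40 in TLR3-/- replicates 1 to 3. All TLR3-/- livers thus lay below all TLR3wt livers, with a gap of 0.818 between the nearest of them. The TLR3wt livers spanned 1.93 log2 units and the TLR3-/- livers 0.09. The mean was 8.27 ± 0.96 in TLR3wt and 6.42 ± 0.05 in TLR3-/- livers, a log2 difference of -1.85 (95% interval -2.95 to -0.76), or 3.61-fold lower. It did not pass (limma adjusted p = 0.175), and without TLR3wt replicate 2, its highest liver, the difference was -1.38 (limma adjusted p = 0.312).

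The regions before the starts of these genes show how alike the pair is. Over windows of 300 bases around the starts (250 before, 50 after, from RefSeq, build GRCm38.p6) the genes differed at 4 bases, an identity of 98.7%. The last 160 bases before each start follow, 5′ to 3′ on the minus strand, from chr17:34972157-34972316 for Hspa1a and chr17:34959239-34959398 for Hspa1b, with capitals for a heat shock element of 2 units, GAANNTTC.
Hspa1a: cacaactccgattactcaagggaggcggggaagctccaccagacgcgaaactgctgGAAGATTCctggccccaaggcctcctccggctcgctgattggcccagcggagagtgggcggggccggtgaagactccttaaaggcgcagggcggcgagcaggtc
Hspa1b: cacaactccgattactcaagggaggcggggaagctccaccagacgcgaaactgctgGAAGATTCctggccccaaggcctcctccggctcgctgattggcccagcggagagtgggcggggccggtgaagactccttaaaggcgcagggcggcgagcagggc

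Windows were available for 8 of the 10 genes, and Hspa8 and Hsp90aa1 had none. They were searched for the 2-unit elements GAANNTTC and TTCNNGAA and for 3-unit elements, in which a further GAA or TTC follows after NN in the alternating order, so that they contain the shorter ones. Both strands were covered, since each 2-unit pattern is its own reverse complement and the 3-unit patterns are each other's. A 2-unit element was found in at least 1 window of 7 of the 8 genes, and 15.1% of all 32851 windows held one. A 3-unit element was found for 3 genes, Hspd1, Hspe1 and Hsph1, and in 0.603% of all windows. The 8 genes had 11 windows together, so their counts are by gene and the shares are by window, which are unlike units. The only match of Bag3 and the 3-unit match of Hsph1 lie after the starts. These finds are not all separate, since Hspd1 and Hspe1 share a stretch and the Hspa1a and Hspa1b windows are nearly the same. A match describes the letters and is not evidence of binding.

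Dnajb1, the J-protein that delivers substrates to HSP70 and stimulates its ATPase, showed the clearest separation among the genes with a probe set of their own. Its probe set (10573198) read 7.35, 7.77 and 7.14 in TLR3wt replicates 1 to 3 and 6.60, 6.78 and 6.25 in TLR3-/- replicates 1 to 3. Every TLR3-/- liver lay at least 0.364 below every TLR3wt liver. With means of 7.42 ± 0.32 and 6.54 ± 0.27 (SD, n = 3 each), the log2 difference was -0.88 (95% interval -1.36 to -0.39), or 1.83-fold lower, at an unadjusted limma p of 0.00424 and an adjusted p of 0.167. Leaving out any 1 mouse gave -1.01 to -0.70, always without a call. Of the 8 genes with windows, Dnajb1 was the 1 gene without an element of the searched letters, which says only that these letters are not in its windows. The 160 bases before the first of its starts are chr8:83608015-83608174 on the plus strand, all in lower case because nothing matched.
Dnajb1: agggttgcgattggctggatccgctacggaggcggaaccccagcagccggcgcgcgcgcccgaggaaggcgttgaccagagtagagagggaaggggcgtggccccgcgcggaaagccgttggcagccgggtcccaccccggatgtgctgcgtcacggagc

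Bag3 and Hsph1, which both release nucleotide from HSP70, had lower means in TLR3-/- livers, with overlapping groups. Bag3, which links HSP70 to selective autophagy, read 7.36, 7.93 and 7.02 in TLR3wt replicates 1 to 3 and 6.49, 7.03 and 6.92 in TLR3-/- replicates 1 to 3 (probe set 10557992). The groups overlapped by 0.00788, between TLR3wt replicate 3 and TLR3-/- replicate 2. The log2 difference of Bag3 was -0.62 (95% interval -1.24 to -0.00, limma adjusted p = 0.343), and leaving out 1 mouse moved it between -0.83 (without TLR3wt replicate 3) and -0.37 (without TLR3wt replicate 2). Hsph1, an HSP110 protein, read 8.66, 9.28 and 8.23 in TLR3wt replicates 1 to 3 and 7.36, 9.05 and 7.34 in TLR3-/- replicates 1 to 3 (probe set 10535904). TLR3-/- replicate 2 was thus as high as the TLR3wt livers, and the other two TLR3-/- livers were the lowest of the 6. The Hsph1 difference of -0.80 had a 95% interval of -2.06 to 0.46 (limma adjusted p = 0.537), and leaving out 1 mouse moved it between -1.37 (without TLR3-/- replicate 2, limma adjusted p = 0.315) and -0.51 (without TLR3-/- replicate 3). It was -0.52 both without TLR3-/- replicate 1 and without TLR3wt replicate 2.

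Hspa8, the constitutive HSP70 of the cytosol, read 11.57, 11.69 and 11.34 in TLR3wt replicates 1 to 3 and 10.99, 11.51 and 10.89 in TLR3-/- replicates 1 to 3 (probe set 10528021). Here too TLR3-/- replicate 2 lay within the TLR3wt range and the other two TLR3-/- livers below it. The log2 difference was -0.40 (95% interval -0.84 to 0.04, limma adjusted p = 0.375), over the 3 probe sets of Hspa8 it ranged from -0.40 to -0.34, and leaving out 1 mouse moved it between -0.59 (without TLR3-/- replicate 2) and -0.28 (without TLR3-/- replicate 3).

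Hsp90aa1, the stress-inducible cytosolic HSP90, read 10.64, 10.91 and 10.44 in TLR3wt replicates 1 to 3 and 9.94, 11.14 and 10.11 in TLR3-/- replicates 1 to 3 (probe set 10378848). TLR3-/- replicate 2 was the highest of the 6 livers and the other two TLR3-/- livers were the lowest. The log2 difference was -0.27 (95% interval -1.06 to 0.52, limma adjusted p = 0.756), with a TLR3-/- SD of 0.65 against 0.24 in TLR3wt livers. Single mice set its size: it was -0.64 without TLR3-/- replicate 2 (limma adjusted p = 0.326), but -0.14 when TLR3wt replicate 2 was left out. Dropping TLR3-/- replicate 3 gave -0.12, and dropping TLR3-/- replicate 1 gave -0.038. Over the 3 probe sets of the gene the difference ranged from -0.27 to -0.26.

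Hspb1, a small heat shock protein that holds unfolding proteins without using ATP, was the 1 gene of the 9 with a higher mean in TLR3-/- livers. It read 7.30, 7.91 and 7.17 in TLR3wt replicates 1 to 3 and 6.92, 8.40 and 7.84 in TLR3-/- replicates 1 to 3 (probe set 10408928). The TLR3-/- livers held both the highest and the lowest value of the 6. The log2 difference of 0.26 (95% interval -0.70 to 1.23, limma adjusted p = 0.802) became -0.08 without TLR3-/- replicate 2, 0.12 without TLR3wt replicate 3 and 0.66 without TLR3-/- replicate 1. Over the 2 probe sets of Hspb1 it ranged from 0.26 to 0.29. The 140 bases before the Hspb1 start, chr5:135887779-135887918 on the plus strand, held a pair of separate 2-unit elements, shown in capitals. Beside them stand 30 bases that lie before both listed starts of Hsph1, chr5:149636351-149636380 on the minus strand, with 1 of the 3 matches to a 2-unit element in each of its windows (the others lie after the starts). They are shown as examples of spaced and single elements.
Hspb1: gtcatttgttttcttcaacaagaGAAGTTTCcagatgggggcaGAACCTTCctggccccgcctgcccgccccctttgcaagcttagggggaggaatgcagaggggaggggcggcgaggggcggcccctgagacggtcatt
Hsph1: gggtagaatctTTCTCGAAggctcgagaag

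The mitochondrial chaperonin genes Hspd1 and Hspe1 are neighbours transcribed away from each other, and their values spanned the narrowest ranges over the 6 livers among the 9 genes. Their windows shared 285 bases on opposite strands, and the shared stretch held an element of 4 units, in capitals, within chr1:55088053-55088082, given here as each gene reads it.
Hspe1: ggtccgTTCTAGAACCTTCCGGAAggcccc
Hspd1: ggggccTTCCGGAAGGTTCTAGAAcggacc

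Hspd1 read 10.84, 10.76 and 10.73 in TLR3wt replicates 1 to 3 and 10.60, 10.76 and 10.68 in TLR3-/- replicates 1 to 3 (probe set 10375240). Hspe1, the lid of the same chaperonin, read 9.998, 9.79 and 9.72 in TLR3wt replicates 1 to 3 and 9.59, 10.006 and 9.74 in TLR3-/- replicates 1 to 3 (probe set 10455588). The groups overlapped for both genes, and TLR3-/- replicate 1 was the lowest liver for both. Hspd1 had a log2 difference of -0.10 (95% interval -0.25 to 0.06, limma adjusted p = 0.550). Over the 2 probe sets of each gene the difference ranged from -0.10 to -0.07 for Hspd1 and from -0.06 to -0.05 for Hspe1. Hspe1 differed by -0.06 (95% interval -0.37 to 0.26, limma adjusted p = 0.877), and the sign turned without TLR3wt replicate 1 (0.03) or without TLR3-/- replicate 1 (0.04).

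**Figure D2:**
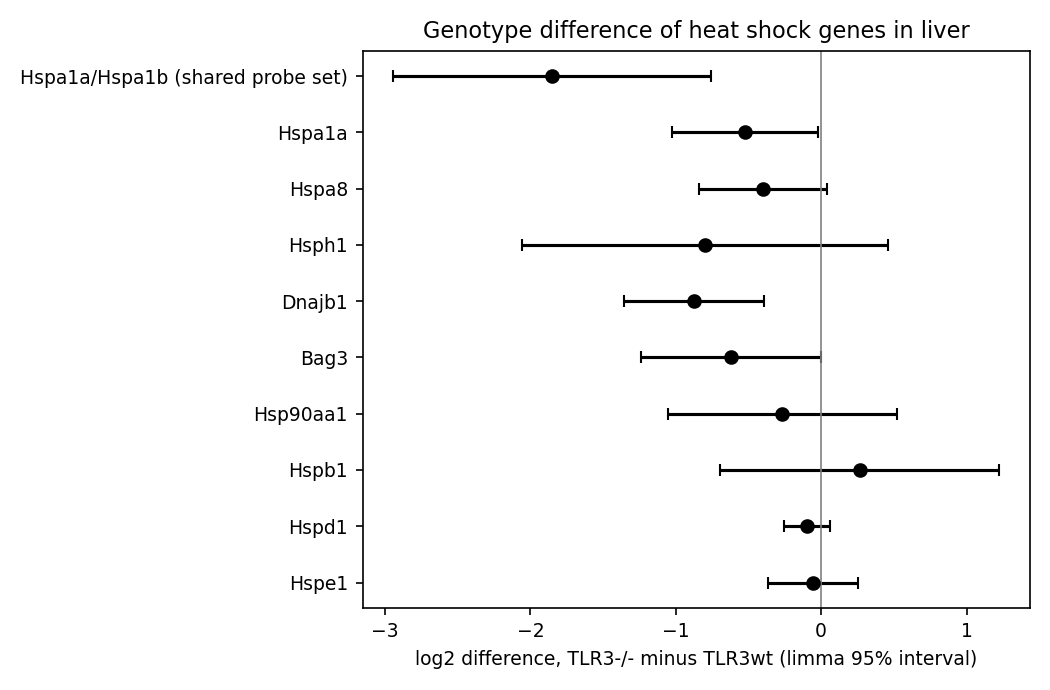
Log2 difference (TLR3-/- minus TLR3wt) of each heat shock gene and of the probe set shared by Hspa1a and Hspa1b, with limma's 95% interval from 3 mice per group. The intervals of the shared probe set, Hspa1a, Dnajb1 and Bag3 lie below 0 before adjustment over all probe sets, those of the other genes span 0, and Hspb1 has the 1 positive estimate.

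Among the mice, TLR3wt replicate 2 was the highest of the 6 livers for 5 of the 9 genes (Hspa1a, Hspa8, Hsph1, Dnajb1 and Bag3), against 13.2% of all tested probe sets. TLR3-/- replicate 2 was the highest for 3 (Hsp90aa1, Hspb1 and Hspe1), against 20.0% of tested probe sets. TLR3-/- replicate 1 was the lowest for 6 of the 9 and TLR3-/- replicate 3 for the other 3, against 13.5% and 14.6% of the tested probe sets with 1 lowest liver. TLR3-/- replicate 2 was the highest TLR3-/- liver for all 9 genes (33.2% of tested probe sets without ties), and TLR3wt livers ran in the order replicate 2, 1, 3 for 7 of the 9 (15.5%), counts made after the values were seen. Within each group, the SD of 8 of the 9 genes was above the median SD of all tested probe sets (0.102 in TLR3wt and 0.0986 in TLR3-/- livers). The mean of the 9 genes, each set to 0 at its TLR3wt mean, was -0.01, 0.29 and -0.28 in TLR3wt replicates 1 to 3 and -0.67, 0.04 and -0.50 in TLR3-/- replicates 1 to 3, so the means of the groups overlapped through TLR3-/- replicate 2. Without that mouse all 9 genes had a lower mean in TLR3-/- livers, with a median difference of -0.59, and 0 passed.

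The lists of other chaperone and co-chaperone genes had medians closer to 0, a difference between lists that was not tested. Of 9 other HSP70 and HSP110 genes 4 were at the floor on all arrays, and of the 5 measured 3 had lower and 2 higher means (median log2 difference -0.04, 0 passed). Hspa4l, an HSP110 gene chosen after its values were seen, was highest in TLR3-/- replicate 2, with 7.25, 7.39 and 7.13 in TLR3wt replicates 1 to 3 and 6.75, 7.78 and 6.95 in TLR3-/- replicates 1 to 3. Hspa4, Hspa14 and the mitochondrial HSP70 gene Hspa9 had differences of 0.13, -0.08 and -0.04. Of 19 other HSP90 genes and co-chaperones 18 were measured, and Hsp90ab1 had no probe set annotated to it alone. Those measured were the HSP90 gene Trap1 and listed co-chaperones, and 11 of the 18 were lower (median -0.04, 0 passed). Fkbp5, an immunophilin of steroid receptor complexes, led at -0.74 (limma adjusted p = 0.215), beside the myosin chaperone gene Unc45a at -0.28 and Aarsd1 at 0.21.

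The counts and medians below stand beside 41.2% of all tested probe sets with a lower mean in TLR3-/- livers and a median of 0.03. J-protein genes other than Dnajb1 had higher means in TLR3-/- livers for 22 of 31 measured (median 0.05, 0 passed). Dnajc14 and Dnajc28 had differences of 0.21 and 0.37, and Dnajb4, of the same subfamily as Dnajb1, was 8.36, 8.59 and 8.10 in TLR3wt replicates 1 to 3 and 8.01, 8.03 and 7.83 in TLR3-/- replicates 1 to 3. The Dnajb4 groups did not overlap, at a difference of -0.39 (limma adjusted p = 0.275). It was the 1 J-protein gene of the 31 with groups apart in the lower direction, against 7.04% of tested probe sets. In the higher direction 3 of the 31 had groups apart, Dnajc14 and Dnajc28 among them, against 13% of tested probe sets. Nucleotide exchange and BAG genes other than Bag3 had 5 of 7 measured higher (median 0.07, 0 passed), with Bag1, Bag4 and Bag6 at 0.10, 0.12 and 0.07. Of 9 other small heat shock protein genes 5 were at the floor on all arrays and 4 were measured, 2 lower and 2 higher (median -0.00, 0 passed), with Hspb6 at 0.29, Hspb8 at -0.24 and Hspb2, near the floor, at -0.03. The TRiC chaperonin and prefoldin genes, which fold actin and tubulin, had 10 of 14 higher (median 0.03, 0 passed), with Tcp1, Cct5 and Cct6a at 0.14, -0.09 and 0.14. All 8 measured genes of mitochondrial proteostasis had higher means (median 0.05, 0 passed), with the DNA-binding protein gene Ssbp1 at 0.32 (limma adjusted p = 0.172), Clpx at 0.22 and Clpp at 0.07. Of 7 genes of heat shock factors and their regulators 5 had a probe set, and 2 of these were at the floor on all arrays. The 3 measured were the factor genes Hsf2 and Hsf4, at 0.11 and -0.04, and the regulator gene Hsbp1, at 0.08 (0 passed). Hsf1 was not among them, so its level in these livers is not known.

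Endoplasmic reticulum chaperones, which fold secreted proteins and answer to the unfolded protein response, stood apart in 1 mouse. TLR3-/- replicate 2 was the highest liver for 14 of 17 genes. The mean of the 17 genes, relative to TLR3wt, was 0.61 in that mouse, -0.35 and -0.17 in TLR3-/- replicates 1 and 3, and -0.16 to 0.11 in TLR3wt livers. Creld2, chosen for its size after its values were seen, was 7.93, 8.63 and 8.27 in TLR3wt replicates 1 to 3 and 7.40, 10.20 and 7.34 in TLR3-/- replicates 1 to 3. Over the genotypes 11 of the 17 genes were higher and 6 lower (median 0.04, 0 passed), with Canx, P4hb and Pdia3 at -0.07, 0.04 and 0.12. The mouse in which Hsp90aa1 and Hspb1 were highest was thus also the mouse with the highest endoplasmic reticulum chaperones, and their part in the heat shock values was not tested.

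Other heat-inducible genes, a list that shares Hspa4l, Dnaja1, Dnajb4 and further names with the lists above, had 13 of 15 measured members lower (median -0.12, 0 passed). Hmox1, which degrades heme, was 6.70, 7.30 and 7.31 in TLR3wt replicates 1 to 3 and 6.48, 6.36 and 6.48 in TLR3-/- replicates 1 to 3, a difference of -0.66 (limma adjusted p = 0.188). Serpinh1, the collagen chaperone of the endoplasmic reticulum, differed by -0.33 (limma adjusted p = 0.199). The groups stayed apart for both genes, which were named for their small p. In the lower direction they did so for 4 of the 15 genes and for 7.04% of tested probe sets.

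The cold-inducible RNA-binding protein genes Cirbp and Rbm3, whose transcripts increase at lowered temperature, were both higher in TLR3-/- livers. Cirbp (probe set 10364712) was 6.50, 6.37 and 6.65 in TLR3wt replicates 1 to 3 and 7.41, 6.95 and 7.0004 in TLR3-/- replicates 1 to 3, with no overlap, a difference of 0.61 (95% interval 0.27 to 0.96) at an unadjusted limma p of 0.00469 and an adjusted p of 0.169. Rbm3 had 3 probe sets, of which only that with the highest mean (10556113) was read. It was 8.21, 8.01 and 8.13 in TLR3wt replicates 1 to 3 and 8.69, 8.15 and 8.42 in TLR3-/- replicates 1 to 3. The difference of Rbm3 was 0.31 (limma adjusted p = 0.385), and its groups overlapped. TLR3-/- replicate 1, the lowest liver for 6 heat shock genes, was the highest for both, as for 23% of tested probe sets with 1 highest liver. TLR3wt replicate 2, the highest liver for 5 heat shock genes, was the lowest for both, as for 20.2% of those with 1 lowest liver. A link between these genes and the heat shock values was not tested.

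**Figure D3:**
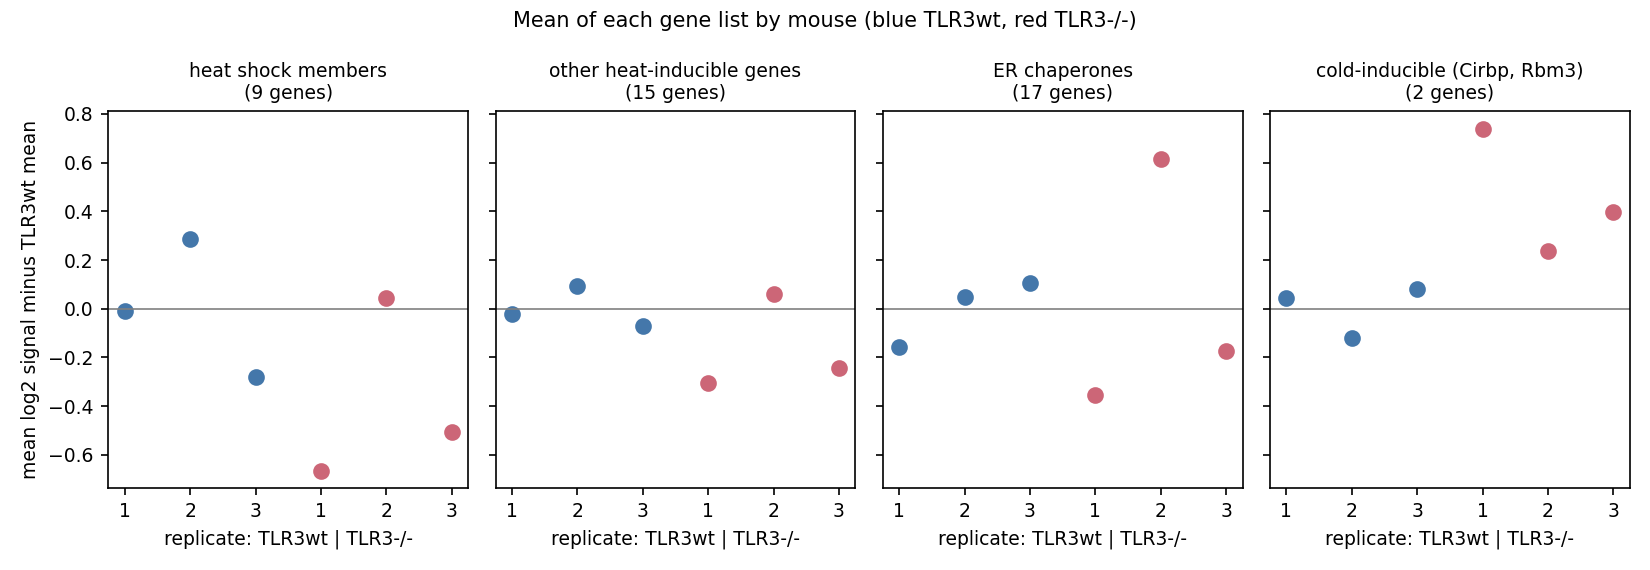
Mean log2 signal of 4 gene lists in each mouse, each gene set to 0 at its TLR3wt mean (blue, TLR3wt replicates 1 to 3; red, TLR3-/- replicates 1 to 3). TLR3-/- replicate 2 lies at 0.04 for the heat shock genes and at 0.61 for the endoplasmic reticulum chaperones, above both other TLR3-/- livers, while the cold-inducible pair is lowest in TLR3wt replicate 2 and highest in TLR3-/- replicate 1.

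The genes whose values ran closest to the mean profile of the 8 heat shock genes above the floor on all arrays were sought among 9084 other genes, by the root mean square difference of centred log2 values over the 6 livers. The nearest was Chordc1, an HSP90 co-chaperone (0.09, where the mean profile spanned 0.94), followed by the J-protein gene Dnaja1 (0.11). Chordc1 was 6.97, 7.27 and 6.82 in TLR3wt replicates 1 to 3 and 6.53, 7.20 and 6.74 in TLR3-/- replicates 1 to 3, and Dnaja1 was 9.82, 9.99 and 9.56 and then 9.37, 9.97 and 9.48. Both thus had TLR3-/- replicate 2 close to TLR3wt replicate 2 and TLR3-/- replicate 1 lowest. The next 6 were Gfpt1, the first enzyme of hexosamine synthesis (0.13), Acnat2 (0.14), Ivns1abp (0.14), Fam102a (0.16), Piga (0.16) and 1810055G02Rik (0.17). None of these 8 genes passed (limma adjusted p 0.268 to 0.824).

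Markers of other cells were read in the same RNA. In whole liver, fewer cells of a type and less RNA per cell cannot be told apart. Of 12 macrophage and Kupffer cell markers 11 were lower in TLR3-/- livers (median -0.87, 0 passed), Timd4, Adgre1 and Marco at -0.90, -1.00 and -1.08, with a log2 summed level of 10.09 to 10.71 against 11.03 to 11.49. Their order within TLR3-/- livers differed from that of the heat shock genes, since TLR3-/- replicate 2 had the lowest macrophage mean (-1.14). In TLR3wt livers replicate 2 had the highest (0.25), as it had for the heat shock genes, and the part of macrophages in the heat shock values was not tested. Endothelial markers had 5 of 10 lower (median -0.02, log2 summed level 10.68 to 10.93 against 10.68 to 11.03), with Pecam1, Lyve1 and Oit3 at -0.24, -0.56 and -0.23. The 5 with higher means, Kdr, Tek, Stab1, Clec4g and Egfl7, differed by 0.01 to 0.10. Stellate cell markers had 5 of 8 measured lower (median -0.11), with a log2 summed level of 10.64 to 10.74 against 10.55 to 10.68. Col3a1, Col1a1 and Col1a2 were at -0.55, -0.49 and -0.28, and the 3 with higher means, Lrat, Reln and Dcn, at 0.21, 0.17 and 0.17. All 9 neutrophil markers were at the floor on all arrays, as were 9 of 10 lymphocyte markers with a probe set (Cd8a reached 5.05 in 1 liver) and 4 of 5 cholangiocyte markers (Sox9 differed by 0.19). Hepatocyte markers had 6 of 9 lower (median -0.01, log2 summed level 15.40 in each TLR3-/- liver and 15.41 to 15.49 in TLR3wt). Tat, Hnf4a and Pck1 were at -0.39, -0.26 and -0.61, and the 3 with higher means, Cyp2e1, Apob and Ttr, at 0.25, 0.04 and 0.04. None of the marker genes of these cell types passed.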

How the data were processed

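The authors deposited log2 signals, for which the submitters' processing notes name RMA and Affymetrix Expression Console. The tool version, the array annotation's genome build and the origin of the floor of 5 are not given in the sources used here. Per array, 57.2% to 57.6% of values sat at that floor, so a difference near it is understated. Gene names came from the platform annotation, updated through gene identifiers to a RefSeq table of GRCm38.p6 that held 99.6% of them, and 21789 probe sets had 1 symbol.

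The test was limma's (version 3.58.1, R 4.3.3; lmFit and eBayes, group as the only term, two-sided, Benjamini-Hochberg adjustment over the 16639 probe sets above the floor on at least 1 array, threshold 0.05). Those never above it, 18918 in number, have no spread and were not tested. The genes studied, the 20 other gene lists and the tests were chosen with earlier results of these data known. The text names all of the heat shock genes, of each list the passing genes or else the up to 3 with the smallest unadjusted p, and the 8 nearest profiles; others are marked. The mice were separate animals. On simulated data for TLR3-/- against TLR3wt (16627 probe sets, 200 changed), the share recovered was 52.2% for log2 changes sized 0.5, 94.0% for those sized 1 and 98.5% for those sized 2. The changed probe sets were drawn at random from those with means clear of the floor, with independent noise. The noise had limma's moderated variances, which are drawn toward a common value, so the shares may be higher than real data would give. The shares do not give the recovery for the heat shock genes. In the real data the shared Hspa1a and Hspa1b probe set, at a log2 difference of -1.85, did not pass. In each group, 8 of these 9 genes had an SD above the median of tested probe sets. Alternatives covered filters, normalization, variance models, array weights, probe set choice, a replicate block and leaving out each mouse.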

Additional observations from a re-analysis of the deposited data

How the results depend on the processing

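None of the 9 heat shock genes passed under any of the 16 alternatives, and the 143 values of single genes kept their direction in 140. The 3 that turned came from leaving out 1 mouse: Hspe1 (log2 difference -0.06) turned to 0.03 when TLR3wt replicate 1 was dropped and to 0.0396 when TLR3-/- replicate 1 was, over a range of -0.17 to 0.04, and Hspb1 (0.26) was -0.0771 without TLR3-/- replicate 2, over a range of -0.08 to 0.66. The count of lower genes stayed between 7 and 9, and the median difference between -0.59 and -0.28. Counting the shared Hspa1a and Hspa1b probe set as a further gene, chosen after seeing the data, gave 9 of 10 lower and a median of -0.46. Over all probe sets limma called 31, against 0 with all 35557 tested (2018 at an unadjusted p under 0.05), 18 with those above the floor on all 6 arrays, 9 after quantile normalization again, 14 with centred arrays, 2 with the ordinary pooled-variance test, 1 with 1-symbol probe sets alone and 0 to 13 without 1 mouse (13 without TLR3wt replicate 3). It called 36 with an intensity trend and 35 with array weights. The cause of these shifts was not tested. With the replicate number as a block 4 were called and no heat shock gene. Over all tested probe sets, deviations of same-numbered mice had correlations of 0.05, -0.01 and -0.06, within the -0.12 to 0.14 of differently numbered mice. With 3 mice per group this cannot settle whether the numbers pair them. Differences near the floor, as for Hspa1a, are limited by signal.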

Other observations

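Genes that respond within minutes to stimulation, and clock genes, were read in the same livers. Of 11 measured immediate-early genes 9 were lower in TLR3-/- livers (median log2 difference -0.18, 0 passed limma's adjusted p of 0.05). The phosphatase gene Dusp1 was 9.12, 9.13 and 8.76 in TLR3wt replicates 1 to 3 and 8.25, 7.80 and 7.80 in TLR3-/- replicates 1 to 3 (limma adjusted p = 0.0994), and Jun differed by -0.83. Btg2 did not leave the floor in any TLR3-/- liver, which makes it at least 1.36-fold lower. The mean of the 11 genes, relative to TLR3wt, was -0.14, -0.33 and -0.35 in TLR3-/- replicates 1 to 3.

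Of 10 measured clock genes 8 were higher in TLR3-/- livers (median 0.19, 0 passed). Per1 was 5.54, 5.996 and 5.37 in TLR3wt replicates 1 to 3 and did not leave the floor in any TLR3-/- liver, a level at least 1.55-fold lower (limma adjusted p = 0.180). The repressor gene Nr1d1 was 8.07, 7.82 and 7.16 in TLR3wt replicates 1 to 3 and 8.74, 8.23 and 8.19 in TLR3-/- replicates 1 to 3, a difference of 0.71, and Cry2 differed by 0.51. The part of time of day in the heat shock values was not tested.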
